A study of Rattus norvegicus with 24 samples.

Results

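Glycine receptor subunits and gephyrin were followed in the dentate gyrus of young and aged rats. They comprise 5 of the 14217 genes named on the array, and were taken as every probe set annotated exactly Glra1, Glra2, Glra3, Glrb or Gphn. This gave 9 of 31042 probe sets other than controls. The family was chosen by the measured fall of Glra2 in these aged rats, so its differences from young rats are a description and carry no test. All animals were male Long-Evans rats, individually housed and without treatment. There were 8 young rats aged 6 months. Aged rats of 24 to 26 months were divided by a Morris water maze learning index into 6 unimpaired rats, which performed within the young range, and 7 impaired rats, which performed worse. The dentate gyrus was microdissected 2 weeks after testing, and each array holds the RNA of 1 biological replicate. The labels give no batch, and the tissue is a mixture of all cells of the region.

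Glycine receptors are chloride channels of the Cys-loop family, built from alpha subunits, which bind the agonist, and the beta subunit. The beta subunit binds gephyrin, the scaffold that anchors glycine receptors and many GABA-A receptors beneath inhibitory synapses. The alpha2 subunit, encoded by Glra2, is the form that prevails in the developing nervous system, while alpha1, encoded by Glra1, is the main adult form in spinal cord and brainstem. In the hippocampus glycine receptors lie largely outside synapses, and taurine and beta-alanine can open them as well as glycine.

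Values are log2 probe set summaries made with GCRMA, which carries dim probe sets to a nearly constant floor. A probe set was tested when it lay above a log2 level of 4 on at least 6 of the 21 arrays, and 15177 probe sets met this. Of the 9 glycine receptor and gephyrin probe sets, 4 met it: 1 of 2 for Glra2, 2 of 3 for Glrb and the only 1 for Gphn. Glra1, the adult alpha subunit, was above that level on 0 of 21 arrays with either of its probe sets, and so was Glra3, a further alpha subunit. Glra2 itself was above the level on all 8 young arrays and on 7 of 7 impaired and 3 of 6 unimpaired arrays, so the young arrays alone were enough for it to be tested.

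Array medians lay between 3.77 and 3.84, and arrays correlated with the rest of their group at a mean r of 0.997 to 0.998. RNA integrity was followed by the gap between the 3' and 5' beta-actin controls, whose median was 2.31 log2 units for young rats, 2.26 for unimpaired and 2.25 for impaired ones. The same gap for GAPDH ran the other way, at 0.52, 0.54 and 0.56. Of 8 listed markers of dentate granule neurons, 7 are on the array and all 7 were tested, with a mean level of 10.04 to 10.69 per array. The mean of 4 tested markers of CA1, the adjoining hippocampal field, ran from 5.36 to 7.17 over the young arrays alone. The 12 listed markers of the meninges, the membranes around the brain, had means of 4.31 to 4.93 on 4 arrays and 3.81 to 4.02 on the others. The 4 arrays were young replicate 5 and impaired replicates 2, 3 and 7. Ttr, the only tested marker of choroid plexus and ependyma, was at 10.78 in young replicate 2 and 9.43 in unimpaired replicate 3. It was at 7.28 and 10.09 in impaired replicates 3 and 7, and at 4.11 to 5.49 on the other arrays. The arrays with high Ttr were not left out as a set.

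Glra2 was the member that differed most. In young rats its level ran from 5.10 through a median of 6.39 to 7.26 (mean 6.27 ± 0.62, SD, n = 8). In unimpaired aged rats it ran from 3.19 through 3.96 to 5.01 (mean 4.08 ± 0.68, n = 6). Impaired aged rats ran from 4.35 through 4.44 to 5.35 (mean 4.66 ± 0.39, n = 7). Every unimpaired array lay below every young array, which was the case for 0.843% of all tested probe sets. Impaired and young arrays overlapped at 1 point: impaired replicate 1, at 5.35, lay above young replicate 1, at 5.10. In all, the aged array was the lower one in 103 of 104 pairs of an aged and a young array. Glra2 was chosen for this fall, and the share of probe sets with as many pairs was not computed. For 0.0659% of tested probe sets every aged array lay below every young array, which Glra2 did not reach. Less RNA per cell and fewer cells that make Glra2 cannot be told apart in such tissue.

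**Figure D1:**
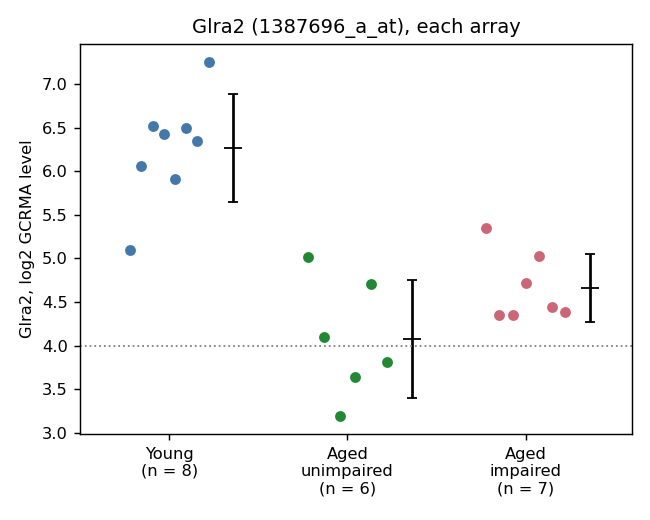
Log2 GCRMA level of Glra2 (vertical axis) on each of the 21 arrays by group. Points are arrays, the bar beside each group is its mean and SD, and the dotted line is the level of 4 used as a filter, below which 3 unimpaired arrays lie. The 8 young arrays sit between 5.10 and 7.26 and all 6 unimpaired arrays at or below 5.01.

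As a description, Glra2 was lower than in young rats by a log2 difference of -2.19 ± 0.29 (moderated SE) in unimpaired rats and -1.61 ± 0.28 in impaired rats. These are levels 4.57 and 3.05 times lower. For the mean of both aged groups the difference was -1.90 ± 0.24, the second lowest of 15177 probe sets. It was the lowest of all in unimpaired and the fifth lowest in impaired rats. With 3 unimpaired arrays below the filter level, near the range where GCRMA values flatten, the size of the lower side is the less certain part. Young replicate 9, the highest array at 7.26, is listed among the unimpaired arrays, although its title and source call it young. Without it the difference of the aged groups from young was -1.76 ± 0.23. Impaired replicates 2, 3 and 7, which had high meningeal markers, gave Glra2 levels of 4.35, 4.35 and 4.44, and the other 4 impaired arrays 4.39 to 5.35. Without these 3 and young replicate 5 the difference of impaired from young rats was -1.45 ± 0.36. The part of the meninges in the difference was not tested.

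Glra2 was not chosen by impaired against unimpaired rats, and the difference there did not pass. This contrast uses the same aged arrays as the differences from young rats by which Glra2 was chosen. Its p is therefore not independent of that choice. Impaired minus unimpaired was 0.58 ± 0.30 (limma adjusted p = 0.374), with a 95% interval of -0.04 to 1.21. All 7 impaired arrays lay above the unimpaired mean, but unimpaired replicates 1 and 7, at 5.01 and 4.70, lay within the impaired range. In that contrast limma called 0 of 15177 probe sets (0%), and 2199 had an unadjusted p below 0.05. The interval runs from just below 0 to a level over 2 times higher in impaired rats.

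Glra2 was also among the most variable probe sets within a group. Its residual SD was 0.57, higher than that of 98.9% of tested probe sets, where the median was 0.14. The other Glra2 probe set was at the floor, from 2.19 to 2.23 over all 21 arrays, so all that is said of Glra2 rests on 1 probe set. Which transcripts each detects was not examined.

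**Figure D2:**
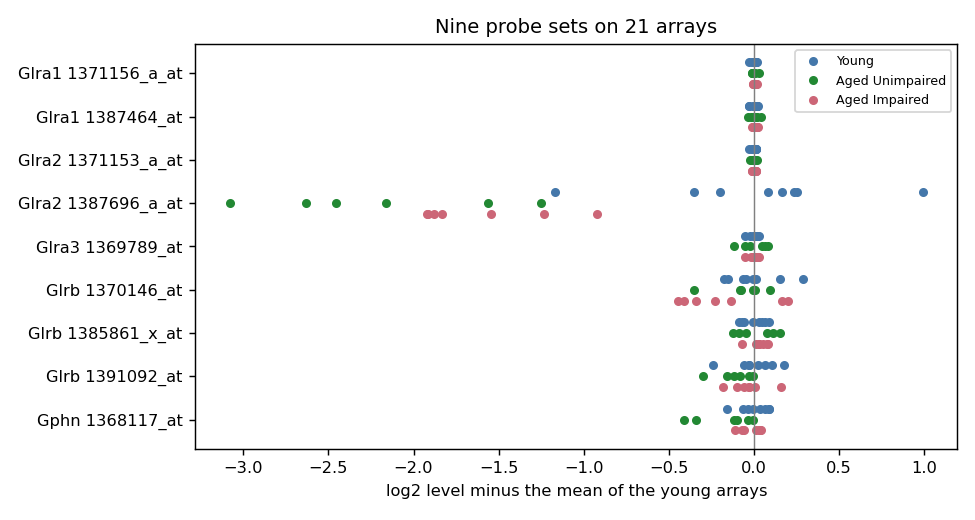
Log2 level of each of the 9 probe sets minus the mean of the young arrays (horizontal axis), with 1 point per array and colours for the 3 groups. The tested probe set of Glra2 spans 4.07 log2 units over the arrays, while the 5 untested probe sets span 0.04 to 0.28 and the 3 of Glrb and Gphn that were tested span 0.48 to 0.73.

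The remaining alpha subunits gave no measurable signal. Glra1 read 2.10 to 2.16 with 1 probe set and 2.86 to 2.94 with the other. Glra3 read 3.68 to 3.88. In a fit with no filter on level, their differences between groups were at most 0.01 in size for each of 4 contrasts, and the lowest adjusted p was 0.74. Such values say that the transcripts were not measurable above background with these probe sets, not that they were absent.

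Glrb encodes the beta subunit, which all alpha subunits share in heteromeric receptors. With the brighter of its tested probe sets it ran from 10.32 through 10.56 to 10.74 in young, from 10.26 through 10.46 to 10.55 in unimpaired and from 10.38 through 10.53 to 10.72 in impaired rats. The 3 groups overlapped over most of their range. Unimpaired minus young was -0.12 ± 0.06 (limma adjusted p = 0.338), with an interval of -0.25 to 0.01 and 6 of 6 unimpaired arrays below the young mean. In that contrast 32.8% of 8737 genes were positive, with a median of -0.04. Impaired minus young was -0.03 ± 0.06 (adjusted p = 0.867), from -0.16 to 0.09. Impaired minus unimpaired was 0.08 ± 0.06 (adjusted p = 0.561).

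With the dimmer tested probe set Glrb ran from 7.98 through 8.13 to 8.44 in young, from 7.80 through 8.11 to 8.24 in unimpaired and from 7.70 through 7.92 to 8.35 in impaired rats. Impaired rats had the widest spread, with an SD of 0.26 against 0.15 in each of the other groups. Impaired minus young was -0.17 ± 0.10 (adjusted p = 0.501), with an interval of -0.38 to 0.03, and unimpaired minus young -0.07 ± 0.10 (adjusted p = 0.773). Impaired minus unimpaired was -0.10 ± 0.10 (adjusted p = 0.67), the opposite sign to the other probe set of the gene. The impaired arrays with high meningeal markers read 7.74, 7.92 and 7.70. Without them and young replicate 5, impaired minus young was 0.01 ± 0.10 (adjusted p = 0.984). The third Glrb probe set was near the floor at 3.41 to 3.68 and was not tested.

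Gphn encodes gephyrin, which also makes the molybdenum cofactor in many tissues. It ran from 9.30 through 9.47 to 9.55 in young, from 9.05 through 9.35 to 9.45 in unimpaired and from 9.35 through 9.47 to 9.50 in impaired rats. Unimpaired replicates 4 and 8, at 9.12 and 9.05, lay below every other array, and the remaining unimpaired arrays overlapped both other groups. Unimpaired minus young was -0.17 ± 0.06, with 6 of 6 arrays below the young mean and an interval of -0.29 to -0.05. This had an unadjusted p of 0.00978 and did not pass over all probe sets (limma adjusted p = 0.158). Only 32.8% of 8737 genes were positive for unimpaired minus young, with a median of -0.04. Impaired minus unimpaired was 0.15 ± 0.06, with 7 of 7 arrays above the unimpaired mean, and did not pass either (adjusted p = 0.263). Of 8737 genes, 74.7% were positive in that same contrast, with a median of 0.05. Impaired rats differed from young by -0.02 ± 0.06 (adjusted p = 0.94), from -0.14 to 0.10.

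**Figure D3:**
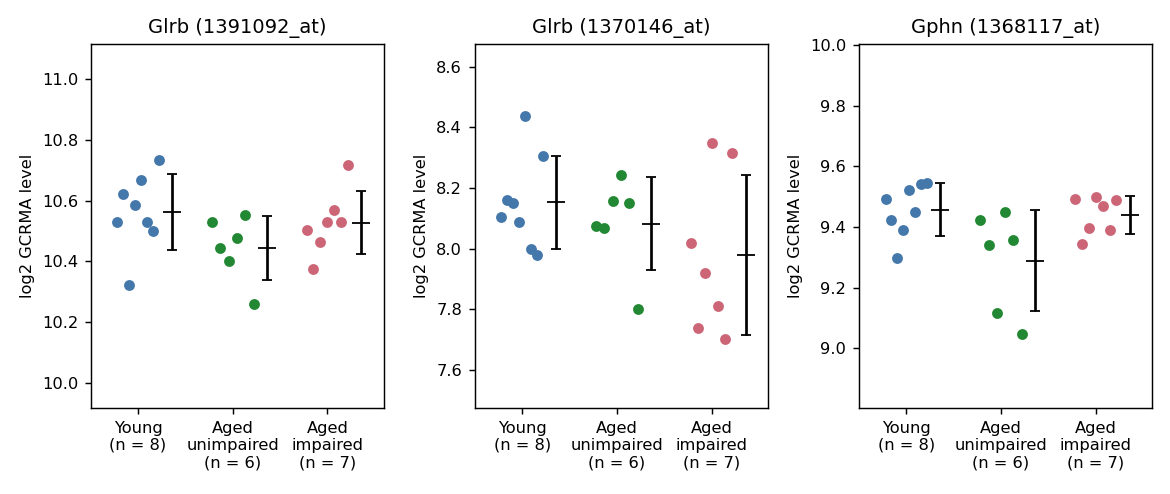
Log2 GCRMA levels of Glrb (2 probe sets) and Gphn on each array by group, each panel spanning 1.2 log2 units. Points are arrays and the bars are means and SDs, and the groups overlap in each panel.

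**Figure D4:**
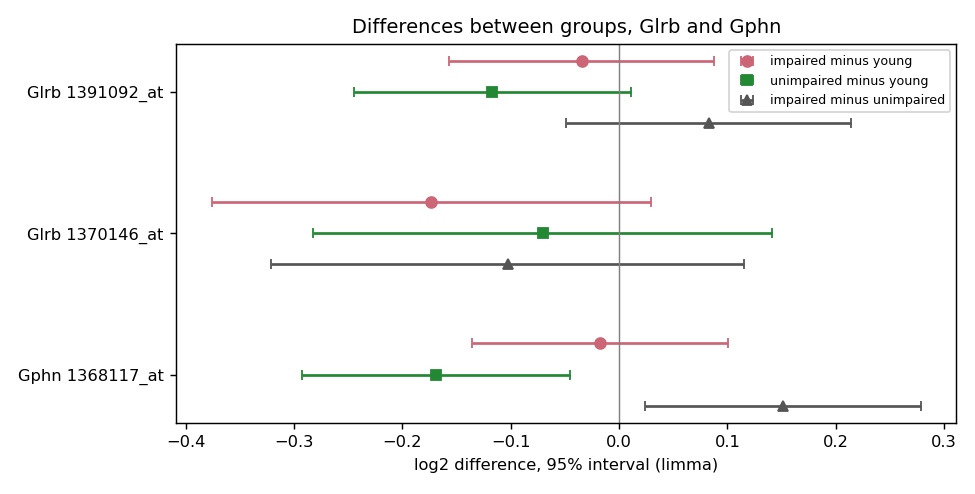
Log2 differences between groups (horizontal axis) for the tested Glrb and Gphn probe sets, with 95% intervals from limma that are not adjusted for the number of probe sets. Both Glrb probe sets have intervals that include 0 in all 3 contrasts, and Gphn in unimpaired rats lies below both young (-0.17) and impaired rats, without passing over all probe sets.

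By count, 1 of the 4 tested probe sets of the family passed limma's threshold (adjusted p below 0.05) in impaired against young rats, where 0.514% of all probe sets passed. The same was true of unimpaired against young rats, where 1.13% passed, and of all aged against young rats, where 1.11% passed. That 1 was Glra2, which had chosen the family, so nothing is read from the count. Without the 4 arrays with high meningeal markers it was 0 for impaired against young rats. These comparisons share the young arrays. For the 3 probe sets of Glrb and Gphn, 0 passed in any of 4 contrasts, and the only unadjusted p values below 0.05 were those of Gphn in unimpaired rats against young and against impaired rats. Their intervals exclude, for either aged group against young, a difference below -0.38.

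The sequences before the start sites of the 3 members with signal are shown as a description, and their part in any difference was not tested. They are the 250 bases upstream of the RefSeq gene start in the GRCr8 assembly, 5' to 3' on the gene's strand, with CG dinucleotides in capitals. Sequences for 4 of the 5 members were in the table, all but Glra1. Glra2 is at chrX:32651937-32652186 (plus strand), Glrb at chr2:168505615-168505864 (minus strand) and Gphn at chr6:102687403-102687652 (plus strand).
Glra2: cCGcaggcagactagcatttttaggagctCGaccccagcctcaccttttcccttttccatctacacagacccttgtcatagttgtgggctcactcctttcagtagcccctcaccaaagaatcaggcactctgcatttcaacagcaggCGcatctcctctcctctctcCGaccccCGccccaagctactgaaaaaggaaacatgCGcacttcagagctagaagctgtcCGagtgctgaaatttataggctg
Glrb: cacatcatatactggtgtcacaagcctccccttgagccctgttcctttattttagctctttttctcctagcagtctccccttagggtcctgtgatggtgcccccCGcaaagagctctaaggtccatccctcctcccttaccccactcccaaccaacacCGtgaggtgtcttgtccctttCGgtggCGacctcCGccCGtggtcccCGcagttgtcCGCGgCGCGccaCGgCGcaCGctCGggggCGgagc
Gphn: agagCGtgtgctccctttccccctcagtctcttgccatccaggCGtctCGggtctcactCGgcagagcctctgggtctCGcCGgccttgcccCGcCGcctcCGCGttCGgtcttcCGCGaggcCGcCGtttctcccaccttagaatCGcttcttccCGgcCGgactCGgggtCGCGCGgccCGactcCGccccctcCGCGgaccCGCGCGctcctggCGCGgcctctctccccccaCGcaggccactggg
The Glra2 window holds 7 CG dinucleotides and is 52.4% G or C, the Glrb window holds 16 at 61.2% and the Gphn window 32 at 72.4%. Over 33469 windows of that length the median was 5 CG dinucleotides. Gphn had more than 95.9% of them, Glrb than 76.2% and Glra2 than 54.8%. Glra3, which gave no signal, holds 4, more than 37.4%. Searched on both strands, TATAAA occurs 1 time in the Glra2 window and not in those of Glrb, Gphn or Glra3, and 12.9% of all windows hold it. GGGCGG occurs in all 4, 2 times in Glrb and 1 time in each of the others, and in 30.5% of all windows. TGACGTCA is in none of the 4 and in 1.59% of all. No expression value bears on any of these letters directly.

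Because Glra2 is a developmental subunit, its level was set beside markers of neural progenitors and immature neurons, which the adult dentate gyrus still makes. All 16 listed markers are on the array and 9 were tested. For aged minus young all 9 were negative with a median of -0.15, and Tubb2b, Nrep and Sox4 passed. Over 8737 genes 43.1% were positive, 1.28% passed and the median was -0.01. Tubb2b, a tubulin of growing neurites, fell by 0.51 ± 0.06 (limma adjusted p = 0.000108), Sox4, a transcription factor of young neurons, by 0.52 ± 0.10 (adjusted p = 0.0124) and Nrep by 0.42 ± 0.07 (adjusted p = 0.00389). Each was lower in 13 of 13 aged arrays, and all 3 were known to be lower here when the list was written. The mean of the 9 per array was 10.12 to 10.36 in young, 9.82 to 9.95 in unimpaired and 9.85 to 10.06 in impaired rats, so that young and aged arrays did not overlap. Of all tested probe sets, 0.0659% had every aged array below every young array. That share is for single probe sets. A mean of 9 markers varies less from array to array, and the share for such means was not computed. The mean includes the 3 markers known to be lower beforehand, so its separation was partly built in. Dcx, which marks young neurons most specifically, was below the filter, at 2.98 to 4.20, as were Sox11, Igfbpl1, Eomes, Dpysl3, Dpysl5 and Calb2. The tested markers are also made by mature neurons to some degree.

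Within groups, where young and aged rats are not mixed, Glra2 was set against the marker mean array by array, a comparison chosen after the data had been seen. Both aged groups were 24 to 26 months old, so age may still vary within them. Over the 8 young arrays Pearson's r was 0.759 (exact permutation p = 0.00407, 0.0488 after adjustment over 12 relations) and Spearman's rho was 0.905 (exact permutation p = 0.00456, adjusted 0.0548). Without the 2 arrays farthest from the median of the marker mean r was 0.722. Without young replicate 9, the array highest in both measures, r was 0.549 (exact permutation p = 0.0325, adjusted 0.283). With any single young array other than replicate 3 left out, the adjusted p was 0.0571 to 0.283. In unimpaired rats r was 0.833 (n = 6, exact permutation p = 0.0472, adjusted 0.283) and rho 0.771 (exact permutation p = 0.103, adjusted 0.333). In impaired rats r was 0.59 (n = 7, exact permutation p = 0.115, adjusted 0.315) and rho 0.643 (exact permutation p = 0.139, adjusted 0.333). Without the 2 farthest arrays r was 0.66 in unimpaired and 0.343 in impaired rats, and neither group passed after adjustment. All tests here are two-sided, with p as 2 times the smaller tail. Counting instead the pairings with at least as large a size of r, the p in young rats was 0.02 by exact permutation, or 0.24 after adjustment. The relation in young rats therefore passed over the 12 by r with the first definition only, and not by rho.

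**Figure D5:**
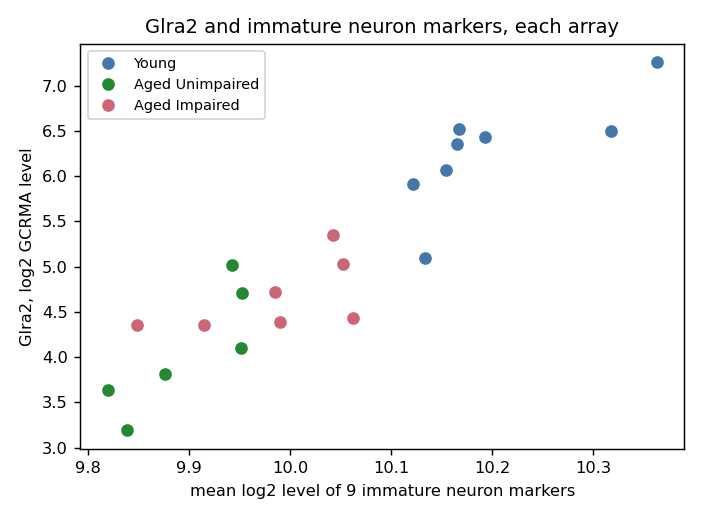
Log2 GCRMA level of Glra2 (vertical axis) against the mean log2 level of 9 tested markers of neural progenitors and immature neurons (horizontal axis), with 1 point per array and colours for the 3 groups. Young arrays lie to the right, from 10.12 to 10.36, with unimpaired arrays at 9.82 to 9.95 and impaired arrays at 9.85 to 10.06, and the slope is upward within each group.

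The other relations tested did not pass. Against the CA1 marker mean, r of Glra2 was 0.0182 in young, 0.766 in unimpaired and 0.0369 in impaired rats (exact permutation, adjusted p of 0.315 to 0.957), and rho was -0.0476, 0.714 and 0.143 (adjusted 0.333 to 0.977). Without the 2 farthest arrays these r were 0.309, 0.788 and -0.535. Against the brighter Glrb probe set r was 0.168 in young, 0.614 in unimpaired and 0.0563 in impaired rats (exact permutation, adjusted 0.333 to 0.957), and rho was 0.0238, 0.657 and 0.414 (adjusted 0.35 to 0.977). Without the 2 farthest arrays they were -0.0381, 0.878 and 0.366. Against Gphn r was -0.0497, 0.553 and 0.619 (exact permutation, adjusted 0.315 to 0.957), and rho -0.0714, 0.314 and 0.679 (adjusted 0.333 to 0.977). Without the 2 farthest arrays these were 0.27, -0.218 and 0.471. With 6 to 8 arrays a group, these tests could miss moderate relations.

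Some markers of other cells passed as well. For aged minus young, where 43.1% of 8737 genes were positive and 1.28% passed, 10 of 10 tested microglia and macrophage markers were positive (C1qa and Fcer1g rose). Of 10 oligodendrocyte markers 9 were negative for aged minus young, and Cldn11, Mal and Ugt8 fell. These 3 also fell in unimpaired rats, where 10 of 10 were negative with a median of -0.32. Over all genes 32.8% were positive and 1.29% passed for unimpaired minus young. In impaired rats 5 of 10 were negative and 0 passed, with a median of -0.02, where 56.2% of all genes were positive and 0.618% passed. All 3 tested markers of oligodendrocyte precursors were negative for aged minus young, and Pdgfra and Vcan passed for unimpaired minus young. The mean of the 3 per array was 7.81 to 8.26 in young, 7.52 to 7.96 in unimpaired and 7.89 to 8.11 in impaired rats. Of 7 tested interneuron markers, 4 were positive for aged, 6 for impaired and 1 for unimpaired minus young, 0 passed, and their mean ran from 7.97 to 8.35, 7.79 to 8.13 and 8.07 to 8.29 in the same order. Of 7 tested endothelium and pericyte markers 6 were negative for aged minus young, and Slco1c1 passed at -0.53 ± 0.06 (limma adjusted p = 3.16e-05). Of 8 astrocyte markers 6 were negative, but Gfap passed at 0.40 ± 0.08 (adjusted p = 0.0154). Among the 7 granule neuron markers 4 were positive, and Pdyn passed at 0.36 ± 0.07 (adjusted p = 0.0138). The part of these cell types in the Glra2 difference was not tested.

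The genes whose level over the 21 arrays was most like that of Glra2, among 8736 others, were Smarce1, a subunit of SWI/SNF chromatin remodelling complexes (r = 0.927), and Ggh, a folate-processing hydrolase (r = 0.913). Next came Rybp, a Polycomb-associated factor (r = 0.899), Orc4, of the origin recognition complex (r = 0.872), and Ubl4a (r = 0.857). All 5 had their highest mean in young and their lowest in unimpaired rats, the order of Glra2, which their choice by r over the same arrays favours. Smarce1, for one, was at a mean of 10.05 in young rats against 9.81 in unimpaired and 9.90 in impaired ones. The most opposite genes were Pcdhb17 (r = -0.776), a protocadherin, Aadat (r = -0.774), a kynurenine pathway enzyme, and Nat8f3 (r = -0.771). These r include the age difference by which Glra2 was chosen. With each group's mean subtracted, the highest were Mon2 (r = 0.791), the mitochondrial copper chaperone Cox17 (r = 0.785), Smarce1 (r = 0.784), Mtrf1l (r = 0.781) and Cmc2 (r = 0.742). Smarce1 was thus on both lists of 5, which are not independent because they use the same arrays. Glrb was most like Kcnab1, a potassium channel beta subunit (r = 0.834), Bzw1 (r = 0.81) and Gria3, an AMPA receptor subunit (r = 0.805), by the same measure. Gphn was most like Tusc3 (r = 0.848), Mterf3 (r = 0.838) and Ino80 (r = 0.829). Each r is over 21 arrays that share normalization, is the highest or lowest among all genes compared and is given as a description.

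Genes of glycine supply, gephyrin's partners and inhibitory chloride handling were examined through 7 lists of 84 genes. Of these, 71 are on the array and 48 were tested. Limma called 0 of the 48 in each of the 4 contrasts, where 1.28% of 8737 genes passed for aged minus young, 0.618% for impaired and 1.29% for unimpaired minus young. At an unadjusted p below 0.05 there were 11 (22.9%), 9 (18.8%) and 8 (16.7%) in those contrasts and 7 (14.6%) in impaired minus unimpaired rats. Over the 8737 genes these shares were 15.1%, 13.1%, 18.0% and 15.8%. For aged minus young 17 of 48 were positive, with a median of -0.05, beside 43.1% of 8737 genes and a median of -0.01. Impaired minus young had 25 of 48 positive, beside 56.2% of all genes, and unimpaired minus young had 9 of 48, beside 32.8%.

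Of 10 tested genes that make, break down or carry glycine, 2 were positive for aged minus young and the median was -0.06. Against young rats 6 were positive in impaired and 1 in unimpaired rats. Gldc, the decarboxylase of the glycine cleavage system, had a difference of -0.18 ± 0.06 (adjusted p = 0.197), with 12 of 13 aged arrays below the young mean. Shmt2, the mitochondrial enzyme that interconverts serine and glycine, was at -0.14 ± 0.05 (adjusted p = 0.239), and Psph, the last enzyme of serine synthesis, at -0.22 ± 0.09 (adjusted p = 0.258). The pair not tested were Shmt1, at 2.46 to 2.51, and Slc6a5, the glycine transporter of glycinergic nerve endings, at 2.17 to 2.29 over all arrays. Both readings were at the floor. Of the 3 tested genes of taurine and beta-alanine supply, all 3 were negative. They were Cdo1, which makes the taurine precursor from cysteine, at -0.15 ± 0.06 (adjusted p = 0.27), the taurine transporter gene Slc6a6 at -0.05 ± 0.04 (adjusted p = 0.67) and Csad at -0.05 ± 0.06 (adjusted p = 0.711).

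Of 18 tested gephyrin partners and postsynaptic proteins, 7 were positive for aged minus young, with a median of -0.04, and 10 for impaired and 4 for unimpaired minus young. Insyn1, a component of inhibitory postsynapses, had means of 7.75 ± 0.17 (SD, young), 7.92 ± 0.14 (unimpaired) and 7.94 ± 0.12 (impaired), and lay above the young mean in 13 of 13 aged arrays (difference 0.19 ± 0.06, adjusted p = 0.167). Pfn1, an actin-binding profilin, was at -0.11 ± 0.05 (adjusted p = 0.264) and Kif5c, a kinesin heavy chain, at -0.19 ± 0.09 (adjusted p = 0.305). The 2 tested kinases of the gephyrin list were Gsk3b at -0.10 ± 0.06 (adjusted p = 0.474) and Cdk5 at 0.04 ± 0.04 (adjusted p = 0.7). For the molybdenum cofactor, gephyrin's product outside the synapse, Mocs2 was at -0.17 ± 0.06 (adjusted p = 0.185) and the molybdoenzyme gene Suox at -0.10 ± 0.06 (adjusted p = 0.44).

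Chloride transporters and their kinases set the ion gradient on which glycine receptors act. For aged minus young 6 of 7 tested were positive, beside 43.1% of 8737 genes. The count was 6 of 7 in impaired rats, with a median of 0.09, beside 56.2% of all genes. It was 2 of 7 in unimpaired rats, with a median of -0.02, beside 32.8% of all genes. Stk39, a kinase that regulates cation-chloride cotransporters, had a mean of 8.71 ± 0.18 (SD, n = 8) in young rats, 8.93 ± 0.08 (n = 6) in unimpaired rats and 8.95 ± 0.11 (n = 7) in impaired rats. It lay above the young mean in 13 of 13 aged arrays by 0.23 ± 0.06 and missed the threshold (limma adjusted p = 0.0578). Its call turned with small changes: it passed without young replicate 1 (adjusted p = 0.043), young replicate 5 (adjusted p = 0.0304) or impaired replicate 7 (adjusted p = 0.0431). With any other single array left out Stk39 did not pass, and without young replicate 9 its limma adjusted p was 0.134. Clcn3, a chloride transporter of intracellular membranes, was at -0.15 ± 0.06 (adjusted p = 0.237) and Slc12a2, which loads cells with chloride, at 0.08 ± 0.05 (adjusted p = 0.527).

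Among 6 tested subunits of related Cys-loop receptors, 1 was positive for aged minus young and the median was -0.06. Gabra5, an alpha subunit of extrasynaptic GABA-A receptors, was at -0.18 ± 0.07 (adjusted p = 0.247), Gabrg1 at -0.35 ± 0.18 (adjusted p = 0.398) and Gabrb1 at -0.06 ± 0.06 (adjusted p = 0.683). The lists were written with earlier results of these data known, and no list was tested against other genes.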

How the data were processed

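Each of 24 labelled samples is a biological replicate hybridized to an Affymetrix rat genome array. The deposited values are on a log2 scale, 1 per probe set. GCRMA is the tool named in the submitters' processing notes, and its version is not given in the sources used here. The submitters omitted 3 arrays, 1 per group, whose columns are empty, which left 21. Nothing says which arrays were normalized together. Gene symbols come from the platform annotation, and all 5 members matched a RefSeq gene by identifier.

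Of 31099 probe sets, 57 controls were left out, and 15177 lay above a log2 level of 4 on at least 6 arrays. On these, lmFit and eBayes of limma 3.58.1 (R 4.3.3) fitted all 3 groups together (18 residual degrees of freedom), with Benjamini-Hochberg adjustment over all of them. An adjusted p below 0.05 counted as passing. The procedure was tested on simulated data. Differences are given ± the moderated SE. The tested probe set of highest mean stood for a listed gene. Within-group relations used exact permutation in scipy 1.17.1, whose two-sided p is 2 times the smaller tail. For arrays, their number limits the precision. The labels do not state that replicates came from separate litters or days, so p values measure the spread between these samples.

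Members and lists were chosen with earlier results of these data known. Named genes are all members, listed genes that passed or otherwise the 3 of smallest p for aged minus young in a list, and the genes most like Glra2, Glrb and Gphn by r. Alternatives were other filters, scalings, weights, an intensity trend, a block by replicate number, only the groups compared, and arrays left out.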

Additional observations from a re-analysis of the deposited data

How the results depend on the processing

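Up to 30 alternative settings were run. Glra2 kept its direction in all of them, with log2 differences from young of -2.38 to -2.01 in unimpaired and -1.77 to -1.45 in impaired rats. The number of the family's probe sets that passed for impaired minus young was 0, in place of 1, with the replicate block and without the 4 arrays with high meningeal markers. For unimpaired minus young it was 0 with the replicate block, and it was 1 whichever single array was left out. The block rests on replicate numbers that name separate animals. Over 17 pairs with the same number, deviations from the group means correlated at -0.118 to 0.2, with a median of -0.01. Of these, 4 were above 0.1, a larger share than the 12 of 129 pairs with different numbers. Among 19 arrays, 7 correlated best with their own number, and the count to be had without any link was not computed. Pairing was accepted only with every pair above 0.1, so the numbers were not taken to pair the samples. That rule is strict, and failing it cannot exclude a weaker link between arrays of the same number. Whether the replicate numbers carry a shared structure was therefore not settled. With the block, Glra2 differed by -2.07 and -1.46, and all probe sets that passed fell from 172 to 9 for unimpaired minus young.

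Differences near 0 changed sign without passing. For impaired minus young, Gphn was 0.023 and the brighter Glrb probe set 0.012 with the replicate block. Without the arrays with high meningeal markers Gphn was 0.039, the brighter Glrb probe set 0.034 and the dimmer 0.011, and the dimmer was 0.041 for impaired minus unimpaired. The cause was not tested. The listed genes that passed for aged minus young numbered 1, Stk39, with a filter above 6 and with quantile normalization, and 0 to 1 when single arrays were left out. Without unimpaired replicate 8 the 1 was Kif5c (-0.25, adjusted p = 0.0409). Over all probe sets, counts ran from 76 to 239 for aged, 29 to 161 for impaired and 9 to 222 for unimpaired minus young, and from 0 to 4 for impaired minus unimpaired. The r of Glra2 with immature neuron markers in young rats, an analysis chosen after seeing the data, was 0.549 to 0.851 with an array left out, 0.705 with median centring and 0.778 with all listed markers, and its adjusted p was 0.0488 or 0.24 by the definition of a two-sided test. Signal near the GCRMA floor limits what can be said of Glra1, Glra3 and the lowest Glra2 values.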

Other observations

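For the single immature neuron markers, in young rats (n = 8 arrays) r with Glra2 was 0.782 for Cd24, a surface glycoprotein of young neurons, 0.729 for Tubb2b and 0.705 for Sox4. It was 0.591 for the transcription factor gene Neurod1, 0.524 for Stmn1, a microtubule regulator, and 0.435 for Nrep. For Tubb3 it was -0.02, for Stmn2 -0.26 and for Mex3b -0.36. With each group's mean subtracted over 21 arrays, Sox4 was highest at 0.664, then Neurod1 at 0.434 and Cd24 at 0.404. These are given as a description without a test, as the single markers were compared after the mean of the list had been seen. Cd24 differed between aged and young by -0.36 ± 0.11 (limma adjusted p = 0.103), with 13 of 13 aged arrays below the young mean, and did not pass.

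In impaired minus unimpaired rats Glra2, Gphn and 37 of the 48 tested pathway genes were positive, beside 74.7% of all 8737 genes. The median over those 48 was 0.07 and over all genes 0.05.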
